A study of Homo sapiens with 6 samples.

Results

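A set of accessible sites was called in every library of cells without CRAMP1 and in no wild-type library. The cells were U2OS, an established line from a human osteosarcoma, and the assay was ATAC-seq, where a transposase inserts adapters into DNA that it can reach. The groups were 3 libraries labelled WT and 3 labelled CRAMP1-KO, both grown without any labelled treatment. Peaks of the 6 deposited lists, 1 per library, were merged where they overlapped by 1 bp or more on chromosomes 1 to 22 of hg19. The sites are the 1690 merged regions with a peak in all 3 CRAMP1-KO lists and in no WT list, of 235633 merged regions (0.717%). Left out were 60 to 75 Mb of chromosome 4, 0 to 15 Mb of chromosome 11, chromosome 13 beyond 75 Mb except for its last tip and 20 to 75 Mb of chromosome 18, segments in which peaks had shifted as blocks between genotypes. They held 149 more such regions. The labels do not say whether the CRAMP1-KO cells were 1 clone or whether replicates were separate cultures, so any p-value speaks for the variation among these 6 libraries alone and that variation could be technical.

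CRAMP1 is known as a regulator of the genes of linker histone H1. H1 binds the DNA that enters and leaves a nucleosome and the linker between nucleosomes, and helps to fold chromatin into a compact state. It is most abundant in gene-poor chromatin with few active regulatory elements. The study's title ties loss of CRAMP1 to H1 supply and to tolerance of topoisomerase II inhibitors. The comparison here asks in what kind of places sites were called only in the CRAMP1-KO libraries. The peak lists hold no measure of H1, and a cause was not tested.

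Outside the left-out segments the WT lists had 189298, 143944 and 125966 peaks in the order of replicates 1 to 3. The CRAMP1-KO lists had 126610, 131679 and 149376. WT replicate 1 stands apart with its long list and its low median fold enrichment of 4.24, against 5.96 to 6.21 in the other 5 libraries. Fold enrichment is the authors' ratio of the fragment pileup at a peak's summit to the local background. A site that is not listed in WT lay below that library's calling limit, which does not mean that it was closed. At the lowest background, the lowest listed pileup was 13, 11 and 9 fragments for WT replicates 1, 2 and 3, and 10, 9 and 11 fragments for CRAMP1-KO.

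The calls chose the members, so their number is a description. The 3511 regions with a peak in all 3 CRAMP1-KO lists and in 1 WT list lay just outside the rule, and 2441 of these had their WT peak in replicate 1. A further 4291 regions had a peak in 2 CRAMP1-KO lists and no WT list. Without WT replicate 1 the rule found 4125 members, and without CRAMP1-KO replicate 1 or 2 it found 3605 or 3468. The weakest members were as weak as the limit allows. At chromosome 15 from 88266483 to 88266932, −log10 q was 4.06, 1.31 and 5.41 in CRAMP1-KO replicates 1, 2 and 3. Of the regions excluded by 1 weak WT peak, one on chromosome 4 from 102036140 to 102036478 had −log10 q of 5.45, 5.76 and 11.4 in the CRAMP1-KO lists and 1.49 in WT replicate 1.

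Many members were nevertheless well above the limit. A −log10 q of at least 5 in every CRAMP1-KO list was reached by 952 members (56.3%), at least 10 by 371 (22%) and at least 20 by 80 (4.73%). Relative to each library's lowest background, the highest WT limit was a pileup of 3.52. All 3 CRAMP1-KO libraries exceeded this limit at 1561 members (92.4%), exceeded it 2-fold at 477 (28.2%) and 3-fold at 161 (9.53%). These ratios take the genome-wide background as the reference, so they hold where the local background was at that level. That was so for 69.8%, 70.7% and 72% of the member peaks in CRAMP1-KO replicates 1, 2 and 3. Peak strength also decides a call, so these counts only describe the members, and they were not taken for other regions. The median −log10 q of members was 7.52, 7.30 and 11.4 in those libraries. For regions listed in all 3 WT lists and no CRAMP1-KO list it was 5.76, 5.71 and 4.38 in WT replicates 1, 2 and 3.

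The strongest member lay on chromosome 6 at 71062819 to 71063486, 668 bp wide. Its fold enrichment was 15.3, 16.7 and 17.5 in CRAMP1-KO replicates 1, 2 and 3, with summit pileups of 63, 67 and 88 fragments over local backgrounds of 3.19, 3.06 and 4.08. Its 3 summits lay within 5 bp of each other, and the nearest peak of any WT list was 4.74 kb away. On chromosome 3, the member at 151097074 to 151097410 had pileups of 59, 62 and 73, and no WT peak lay within 31.5 kb of it. The member at 83576542 to 83577024 of chromosome 7 had pileups of 58, 59 and 98, and its nearest region shared by all 6 lists was 70.3 kb away. All 3 sites were sharply placed, with summits at most 7 bp apart.

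The fourth strongest lay on chromosome 6 at 64722117 to 64722772, inside the window of EYS, a very long gene known for its role in photoreceptors. Its pileups were 44, 58 and 80 in CRAMP1-KO replicates 1, 2 and 3. Next came sites on chromosome 4 at 24054508 to 24054782, with pileups of 52, 63 and 79, and on chromosome 5 at 155370761 to 155371229, with 56, 54 and 84. The site at 190167246 to 190167578 of chromosome 2 had pileups of 56, 51 and 60. Chromosome 4 also held a strong site at 190011431 to 190011810, with pileups of 53, 51 and 74 and its nearest WT peak 38.6 kb away. At 146286331 to 146286681 of chromosome 5 the pileups were 44, 52 and 87. The remaining site of the 10 strongest, on chromosome 6 at 55393376 to 55393710, was uneven, with pileups of 54, 27 and 59. Of these 10 sites, 9 lay more than 5 kb from any region shared by all 6 lists, and the exception was the site at 24 Mb of chromosome 4, at 1.70 kb.

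The members lay in surroundings with fewer shared regions than those of a comparison set. Comparison regions were those with a peak in exactly 3 lists drawn from both genotypes, 13933 in all, of which 5831 had 2 CRAMP1-KO lists and 1 WT list and 8102 had 1 and 2. The median distance from a member to the nearest region shared by all 6 lists was 13.6 kb (95% order-statistic interval 12.4 to 14.7), against 7.34 kb for comparison regions. The upper quartile was 38.3 kb against 15.1 kb. No shared region lay within 100 kb of 125 members (7.4%), against 1.41% of comparison regions. The median number of shared regions within 500 kb was 25 for members and 47 for comparison regions. Over all 1-Mb windows that held any merged region the median was 29, so the typical member lay only somewhat below that level. The mirrored set, the 2675 regions listed in all 3 WT libraries and no CRAMP1-KO library (1.14% of merged regions), lay closer to shared regions than the comparison set, at a median of 5.84 kb. Regions are not replicates, so these distances are given without a test, and the interval treats regions as independent. Without CRAMP1-KO replicate 2 the difference from the comparison regions shrank from 6.22 to 3.57 kb.

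**Figure D1:**
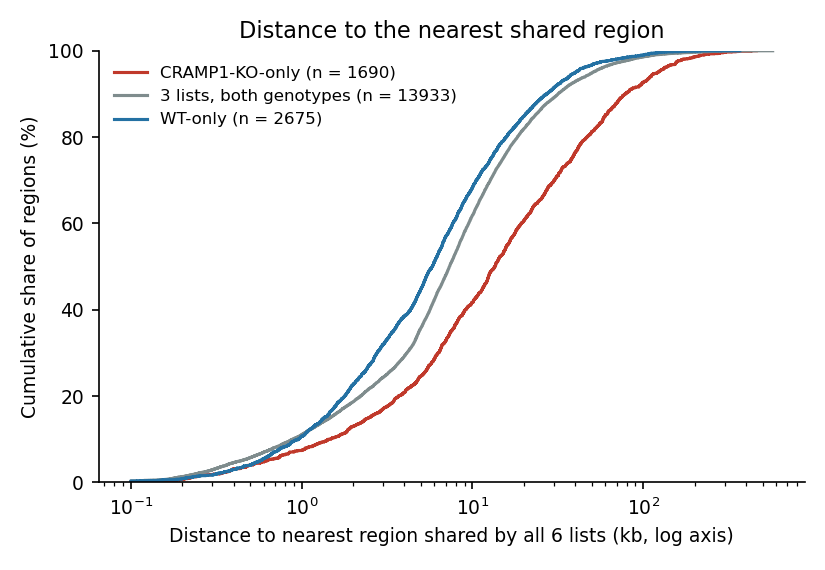
Cumulative share of regions (%) against the distance to the nearest region shared by all 6 lists (kb, log axis, distances under 0.1 kb drawn at 0.1), for CRAMP1-KO-only, WT-only and comparison regions. The CRAMP1-KO-only curve lies to the right of the other two from about 1 kb on, with medians of 13.6, 5.84 and 7.34 kb.

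The most remote members sat far inside stretches with almost no constitutive site. On chromosome 3 the member at 103159501 to 103159789 was 460.1 kb from the nearest shared region, with pileups of 25, 17 and 33 in CRAMP1-KO replicates 1, 2 and 3. Members at 190880752 to 190881297 of chromosome 1 and 127326469 to 127326800 of chromosome 4 were 431.3 and 427.1 kb away. On chromosome 12 the member at 73908519 to 73908857, 361.1 kb away, was stronger, with pileups of 25, 28 and 42. The fifth, at 116667952 to 116668287 of chromosome 2, was 349.1 kb away with 21, 20 and 41. All 5 had at most 3 shared regions within 500 kb. The nearest peak of any WT list was closer, at 5.97, 17.5, 149.3, 92.6 and 15.5 kb in the order given.

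Set against comparison regions, the share of members fell steeply as the neighbourhood became richer in shared sites. Among members plus comparison regions, 10.8% were members in all. With fewer than 10 shared regions within 500 kb the share was 35.2% (218 members and 401 comparison regions, 95% Wilson interval 31.6 to 39.1%). With 10 to 19 shared regions it was 26.3%, with 20 to 29 it was 16.8%, and with 30 to 39 it was 10.3%. In the richer classes it was 5.85% (40 to 59), 4.18% (60 to 79) and 5.06% (80 or more). The last 2 intervals, 3.52 to 4.96% and 4.16 to 6.15%, overlapped. Intervals cover counting error only. In the sparsest class and that of 40 to 59, members numbered 218 and 243, and comparison regions 401 and 3912. The share thus depends on how comparison regions were spread, and is no rate per Mb. Windows of 1 Mb with 0, 1 and 2 members had medians of 31, 30 and 24 shared regions. The WT-only share, taken the same way, ran in the opposite direction, from 8.45% (6.19 to 11.4%) in the sparsest class to 18.6% (17.4 to 20%) at 60 to 79 shared regions.

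**Figure D2:**
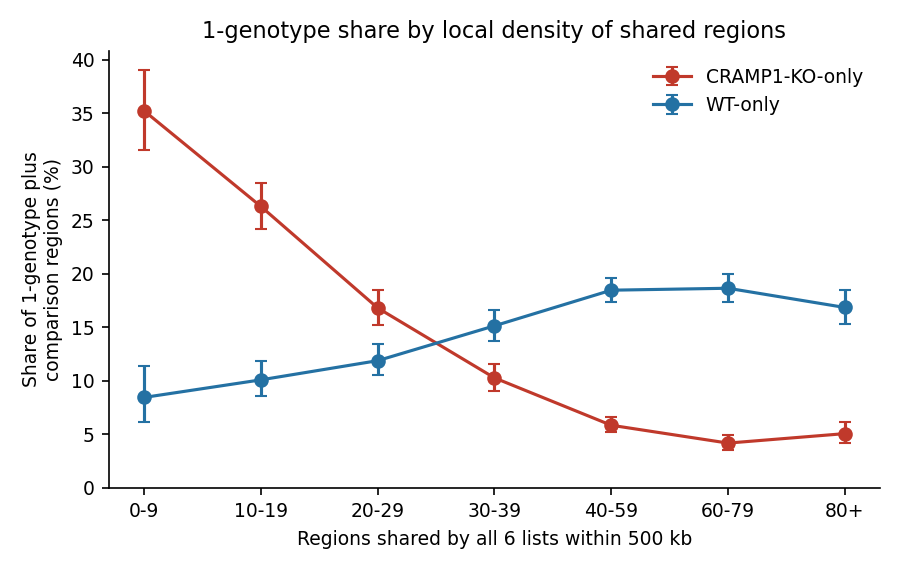
Share of 1-genotype regions (%) among those regions plus comparison regions, by the number of regions shared by all 6 lists within 500 kb, with 95% Wilson intervals. CRAMP1-KO-only regions fall from 35.2% to 5.06% while WT-only regions rise from 8.45% to 16.9%, and the lines cross between the classes of 20 to 29 and 30 to 39.

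The fall was also present in lists of equal length and without the longest list. With 129983 peaks in each list the member share was 48.1% with fewer than 10 shared regions and 10.7% with 40 or more, and without WT replicate 1 it was 58% and 13.3%, against 35.2% and 5.13% with all deposited peaks. The peaks' own local background is described as well. It enters the fold enrichment and −log10 q that decide a call, so it gives no separate support. In CRAMP1-KO replicates 1, 2 and 3 it was at the library's lowest value in 69.8%, 70.7% and 72% of member peaks, but in 42.1%, 55.1% and 51% of comparison peaks. In the WT lists it was at the lowest value in 27.7%, 39.4% and 34.9% of WT-only peaks and in 39.8%, 45% and 39.2% of comparison peaks. Member peaks thus had the larger share at the lowest background in 3 of 3 libraries, and WT-only peaks the smaller share in 3 of 3.

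The sparser setting of members, relative to comparison regions, held within chromosomes as well as between them. Members had fewer shared regions within 500 kb than comparison regions, by medians, on 21 of 22 chromosomes, chromosome 19 being the exception with 80 against 76. They lay farther from a shared region on 21 of 22, all but chromosome 14. On chromosome 4 the medians were 15 shared regions for members and 27 for comparison regions, and on chromosome 1 they were 27 and 53. The retained part of chromosome 13 had the widest gap in distance, with medians of 53.7 kb for its 32 members and 10.2 kb for its comparison regions.

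Between chromosomes, the member share among members plus comparison regions ranged from 5.02% on chromosome 19, which is rich in genes, to 20.5% on the retained part of chromosome 13, which is poor in genes. Chromosome 4 followed with 20.2% (139 members) and chromosome 6 with 16% (121 members). The retained parts of chromosome 18, before 20 Mb and after 75 Mb, had 5.79% (14 members), next to chromosomes 22 and 17 with 5.97% and 6.82%. WT-only shares spanned a narrower range, from 12.1% on chromosome 13 to 18.9% on chromosome 17. The chromosomes with the highest member shares, 13 and 4, had the lowest WT-only shares.

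**Figure D3:**
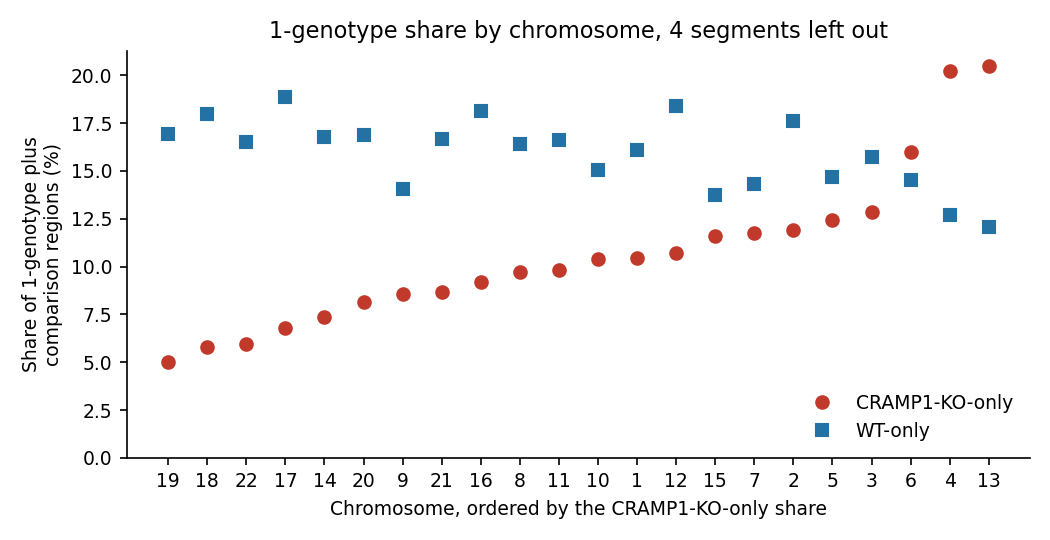
Share of CRAMP1-KO-only regions (circles) and of WT-only regions (squares) among those regions plus comparison regions (%), by chromosome, ordered by the CRAMP1-KO-only share and with the 4 segments left out. The circles run from 5.02% on chromosome 19 to 20.5% on chromosome 13, and lie above the squares on chromosomes 6, 4 and 13.

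Very long genes gave a view at named loci. Genes of this size, many of them neuronal, are known to lie in gene-poor and late-replicating chromatin, and several span common fragile sites. Of 22 long-gene windows, 20 matched the reference gene length and were used. They covered 30.9 Mb with 11.2 shared regions per Mb, and 10 held a member. Together they held 20 members and 55 comparison regions, a member share of 26.7% against 10.8% over all regions. The share is close to the 26.3% of all places with 10 to 19 shared regions within 500 kb. It is no rate per Mb. In all, 1690 members and 13933 comparison regions lay over 2601 windows of a Mb each. For their length, the long-gene windows thus held about as many members as elsewhere, but fewer comparison regions. The higher share came from the few comparison regions and shows no excess of members in long genes. The long-gene windows also held 4 WT-only regions, a WT-only share of 6.78% against 16.1% over all regions. The windows were chosen for gene size with earlier results known, so the share is a description of these loci.

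MACROD2, which encodes a hydrolase of ADP-ribose marks and spans a fragile site, held 4 members and 3 comparison regions. MAGI2, a scaffold protein of cell junctions, held 3 and 3, and PCDH15, a cadherin of hair cells in the ear, held 3 and 1. DLG2, a synaptic scaffold, held 2 members and 6 comparison regions, and EYS held 2 and 3. ERBB4, a receptor tyrosine kinase of the EGF receptor family, held 2 and 1. The fragile-site genes FHIT, WWOX and IMMP2L held no member, nor did LRP1B or CNTNAP2. Their windows were short of candidates as well, with 1 to 4 comparison regions each, so a share near 10.8% could not be told from none there. Of the other windows without a member, those of NRG1 and CTNNA2 had the most comparison regions, 6 and 5. No member lay within 50 kb of CRAMP1, of the H1 genes H1-1, H1-2, H1-3, H1-4, H1-5 and H1-10, or of the topoisomerase II genes TOP2A and TOP2B. With at most 3 comparison regions in each of these 9 windows, absence there is within what the background share allows.

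Neighbours of members were more often members than neighbours of comparison regions were. Within 100 kb of a member, 314 of 2000 neighbouring members and comparison regions were members, or 15.7% (95% Wilson interval 14.2 to 17.4%). Around comparison regions it was 1686 of 26924, or 6.26%. Within 20 kb the shares were 18.3% and 6.16%, and within 500 kb 14.2% and 6.71%. Pairs of neighbours are counted from both sides, so the intervals are too narrow. In all, 282 members (16.7%) had another member within 100 kb and 31 (1.83%) had 2 or more, while 905 (53.6%) had one within 500 kb. The median distance to the nearest other member was 453.8 kb. These counts were not set against a random placement, so by themselves they show no grouping. The share of members also followed the local density of shared regions, and the part of that density in the higher share around members was not tested.

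Members touched 1184 of 2601 windows of 1 Mb that held any merged region. The densest window, 187 to 188 Mb of chromosome 4, held 7 members, 5 comparison regions and 1 WT-only region. The window at 119 to 120 Mb of chromosome 12 held 6 members against 2 comparison regions. Another 5 windows held 5 each, starting at 177 Mb on chromosome 1, at 130 Mb on chromosome 10, at 164 Mb on chromosome 6, at 98 Mb on chromosome 15 and at 49 Mb on chromosome 17. These 7 windows had 18 to 43 shared regions each, against a median of 29 over all windows. Windows with 3 or 4 members had medians of 19.5 and 16 shared regions.

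Within each CRAMP1-KO library, the median member peak was wider and stronger than the median comparison peak. Their median width was 276, 268 and 306 bp in replicates 1, 2 and 3, against 249, 238 and 273 bp. The difference was 30 ± 3 bp (SD, n = 3), positive in 3 of 3 libraries. Members are listed in all 3 CRAMP1-KO lists and comparison regions in 1 or 2, and among comparison regions the median width was also larger with 2 such lists than with 1, at 253 against 241, 240 against 232 and 276 against 270 bp. Width is therefore described without a test against them. Without WT replicate 1 it was 18.7 bp. Regions shared by all 6 lists were far wider, with medians of 603, 577 and 649 bp. WT-only peaks were also wider than comparison peaks of their own library, by 34, 13 and 9 bp. The width difference of members exceeded that of WT-only regions by 11.3 bp (exact permutation, two-sided, n = 6, p = 0.4). With 3 libraries against 3 this p cannot go below 0.1, and the calls chose both sets, so nothing is concluded from it. Without CRAMP1-KO replicate 3 this excess was -6.83 bp. The widest member, 1382 bp on chromosome 4 at 187701575 to 187702956, chained peaks whose summits lay 1095 bp apart. The next widest was the 1111 bp member on chromosome 20 between 17504176 and 17505286. Chromosome 16 had one of 1073 bp from 64661100 to 64662172. The other two were on chromosome 3, 1067 bp from 151426845 to 151427911, and on chromosome 19, 1022 bp from 5122855 to 5123876. Only 18 of the 1690 members had more than 1 peak in any CRAMP1-KO list.

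Fold enrichment takes part in being called, so it is described without a test. Its median in members was 4.29, 4.47 and 5.11 in CRAMP1-KO replicates 1, 2 and 3, against 3.34, 3.26 and 3.34 in comparison regions and 8.20, 8.73 and 9.60 in shared regions. The mean difference from comparison regions was 1.31 ± 0.417 (SD, n = 3), and without CRAMP1-KO replicate 3 it was 0.789. WT-only peaks, chosen by the mirrored rule, stood closer to the comparison peaks of their own libraries, with medians of 3.13, 3.42 and 3.48 against 3.12, 3.29 and 3.38. By −log10 q, the median member stood at percentile 28.7, 30.2 and 35.3 of the list of CRAMP1-KO replicate 1, 2 and 3, in the weaker part of each.

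**Figure D4:**
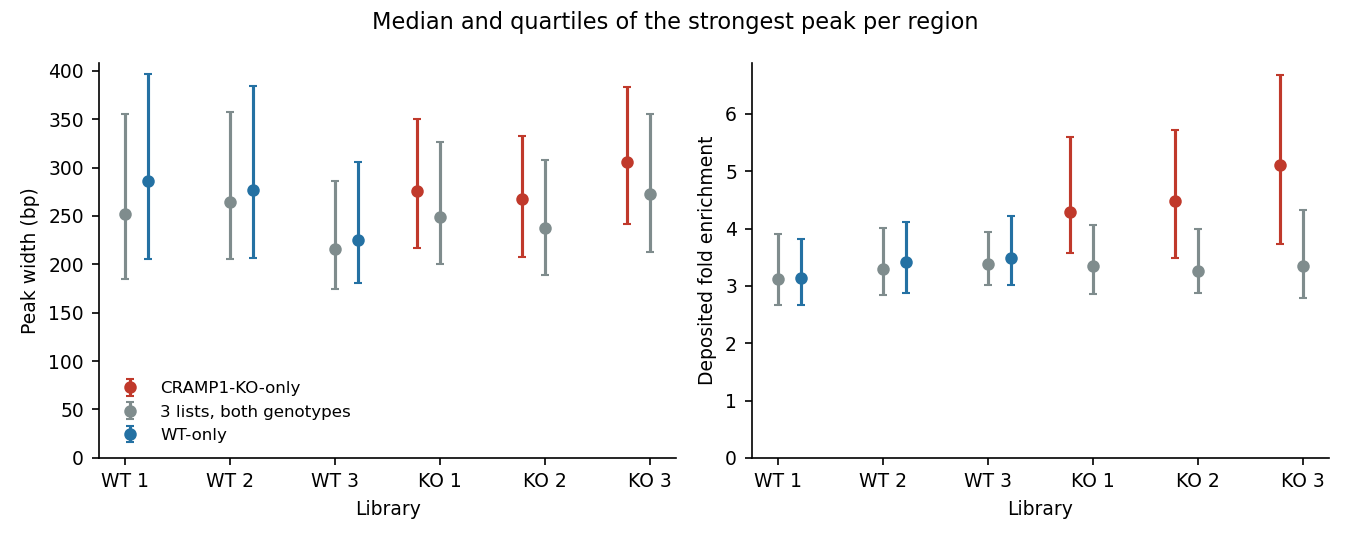
Median (points) and quartiles (bars) of peak width (bp, left) and deposited fold enrichment (right) of the strongest peak per region, by library, for CRAMP1-KO-only, comparison and WT-only regions. Median fold is 4.29 to 5.11 in CRAMP1-KO-only regions of the 3 CRAMP1-KO libraries and 3.13 to 3.48 in WT-only regions of the 3 WT libraries.

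The stronger members lay farther from shared regions. Members with a median fold under 4 (593) were a median of 7.19 kb from a shared region, those from 4 to 6 (717) were 16.8 kb away, and those of 6 or more (380) were 20.1 kb away. Comparison regions in the same fold classes lay at 6.65, 9.48 and 12.8 kb. The median number of shared regions within 500 kb was 35, 22 and 18.5 for members in these classes and 52, 35 and 30 for comparison regions. Under a fold of 4 the distances of members and comparison regions were close, while the number of shared regions around them was lower for members in all 3 classes. The same local background enters fold enrichment, and a low background raises it, so the 2 measures are not independent.

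Member peaks lay at close to the same position in the 3 CRAMP1-KO libraries. The 3 summits of a member spanned a median of 49 bp (quartiles 21 and 103), against 97 bp in comparison regions and 89 bp in WT-only regions. Summits lay within 50 bp of each other in 51.7% of members, 31.1% of comparison regions and 32.2% of WT-only regions. Members also had the higher median fold enrichment, and its part in this agreement was not tested. The 3 peaks had no base in common in 39 members, which were chained through a peak between. Fold enrichment of members correlated across regions between pairs of CRAMP1-KO libraries, with Pearson r of 0.804 to 0.845 and Spearman rho of 0.76 to 0.808 over 1690 regions that are not independent replicates. Within 200 bp of a WT peak lay 39 members (2.31%), against 6.22% of comparison regions near another region with a WT peak.

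Each library in turn was then left out, and regions with a peak in exactly 2 of the other 5 lists were looked up in the left-out list. That list took no part in choosing them, but the merging of peaks into regions had used all 6 lists. Of the regions chosen by 2 CRAMP1-KO lists, the left-out CRAMP1-KO replicate 1, 2 or 3 listed 47.2%, 48.8% and 72.9%. Of regions chosen by 1 list of each genotype it listed 23.9%, 27.1% and 44.7%, and of those chosen by 2 WT lists 14.3%, 16.7% and 32.9%. For left-out WT replicates 1, 2 and 3 the shares were 74.1%, 48% and 32.2% with 2 WT lists, 63.9%, 37.9% and 19.3% with 1 of each, and 48.5%, 23.3% and 10.2% with 2 CRAMP1-KO lists. All 6 libraries thus followed the order of their own genotype, with levels that also followed the length of the left-out list. The gain of 2 own lists over 1 of each was 24.4 ± 3.43 percentage points in CRAMP1-KO and 11 ± 1.59 in WT (SD, n = 3 each), with no overlap. In lists of equal length the gains were 22.4 ± 0.899 and 15.8 ± 3.16 points, and at a −log10 q of at least 5 they were 24.9 ± 1.71 and 15.2 ± 2.14 (SD, n = 3 each). The gap between genotypes was thus smaller under both, again without overlap. The 6 values share lists, so no test is given. With 2 own lists, the regions listed were the 1690 members or the 2675 WT-only regions themselves. These shares therefore give no support separate from the rule.

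**Figure D5:**
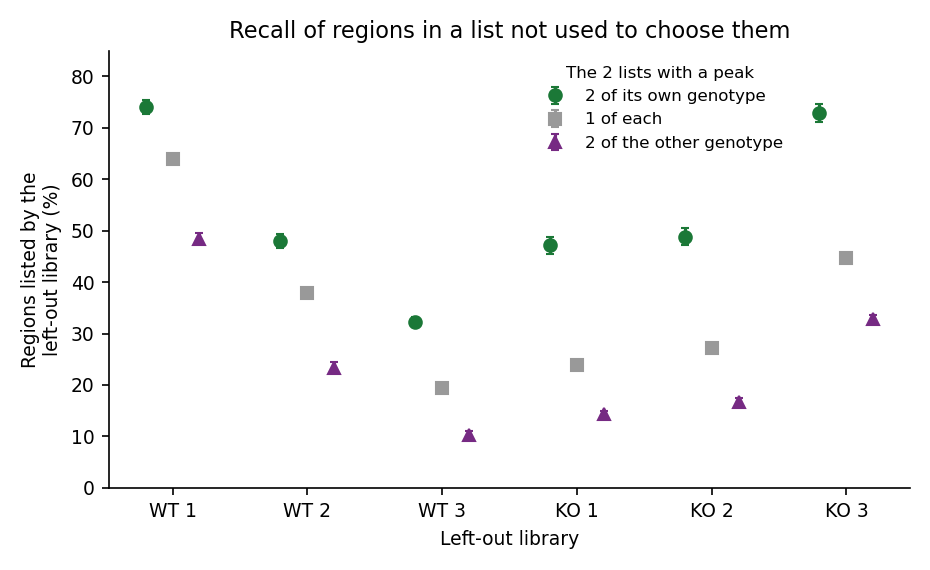
Share of regions (%) listed by a left-out library, among regions with a peak in exactly 2 of the other 5 lists, by the genotype of those 2 lists, with 95% Wilson intervals. In all 6 libraries the share is highest with 2 lists of the own genotype, from 32.2% in WT replicate 3 to 74.1% in WT replicate 1.

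The signal of shared regions close to a member was compared between genotypes as well. Summit pileup was compared over all 87625 shared regions with limma (log2 pileup centred on each library's median, two-sided, Benjamini-Hochberg adjustment, threshold 0.05). Of all shared regions, 6.83% were called higher and 9.33% lower in CRAMP1-KO. Within 50 kb of a member, 560 of 5284 shared regions were higher (10.6%) and 339 lower (6.42%). The median log2 difference there was -0.01, against -0.07 over all shared regions. By distance, 12.6% were called higher and 7.82% lower within 5 kb of a member, and 5.65% and 10.5% beyond 500 kb. The mean centred log2 pileup of the shared regions near members was 0.0231, 0.0291 and 0.0548 in the WT libraries, in order of replicate. The CRAMP1-KO libraries had 0.0715, 0.0723 and 0.0395, so that the groups overlapped. Over the other shared regions the WT libraries had 0.0759, 0.0849 and 0.107 and the CRAMP1-KO libraries 0.0529, 0.0534 and 0.019, without overlap. This is the contrast that chose the members, so nothing further is read from these counts. Scaled by each library's lowest background in place of the median, 5.44% of all shared regions were higher and 4.97% lower, so the excess of lower calls turned round. Near members 466 (8.82%) were then higher and 162 (3.07%) lower. Without WT replicate 2, under the first scaling, 347 (6.57%) were higher and 155 (2.93%) lower near members, against 4.08% and 4.71% of all shared regions. Higher calls near members numbered 394 to 432 without any other 1 library, and lower calls near members were 236 without WT replicate 1, 183 without WT replicate 3, and 196, 211 and 189 without CRAMP1-KO replicates 1, 2 and 3.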

How the data were processed

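ATAC-seq peak lists of 6 U2OS libraries were used. Per the labels' protocols, each came from 50000 cells, tagmented for 30 minutes and amplified for 7 PCR cycles. Per the submitters' processing notes, the tools were bcl2fastq 2.20.0, cutadapt 3.4, BWA 0.7.17-r1188 and MACS3 with hg19. For MACS3 no version or settings are given in the sources used here, and none for duplicate reads. The authors called peaks per library without pooling. The deposited score is 10 times −log10 q, the deposited fold enrichment is a ratio of summit pileup to local background, and the deposited −log10 p and −log10 q rate the summit against that background. Total reads are unknown.

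Coordinates are hg19, counted from 1. The strongest peak of a region in a library gave its width and fold. Fold and Poisson −log10 p were solved for pileup and background, giving whole pileups within 0.01 in 100% of peaks. The solver and limma were tested on simulated data. Distances are gaps between region ends, and neighbour counts use midpoints. Regions named were the 10 strongest by median −log10 q, the 5 widest, the 5 most remote, the 5 densest 1-Mb windows with their ties, the weakest members and the regions just outside the rule, of which 1 each is given. Gene windows were written by hand for hg19 and kept if chromosome and length matched the GRCh38.p14 gene table within 15%. DAB1 and LSAMP were dropped. Some planned windows are not reported here. The 6 long genes with most members were named, with a flank of 50 kb for CRAMP1, H1 and topoisomerase II genes; other long genes were named after their values were seen. The members, gene lists and tests were chosen with earlier results of these data known. No genome of hg19 was used here, so sequences, motifs and annotation classes were not analysed here. Tools were Python 3.11.15, numpy 2.4.6, pandas 2.3.3, scipy 1.17.1, matplotlib 3.10.9, R 4.3.3 and limma 3.58.1. Alternatives were lists of equal length (the strongest peaks by −log10 p), a −log10 q of at least 5, an overlap of 50 bp, other distances, the segments or chromosome X kept, a replicate block, another scaling and each library left out. The classes by density of shared regions, and their alternatives, were chosen after seeing the data.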

Additional observations from a re-analysis of the deposited data

How the results depend on the processing

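Of 101 values under alternatives, 64 counted as the same, 34 kept their direction but moved further, and 3 reversed. To count as the same, counts had to stay within 1.5 times, and width differences only had to keep their direction. The other values had to keep their direction and stay within the spread. Member width, 30 ± 3 bp, thus counted as the same at 18.7 bp with a −log10 q of at least 5.

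The count of members went from 1690 to between 1927 and 4125 with 1 library left out. These sets overlapped at least 1676 of the 1690 members, that of equal lists overlapped 1434, and that of the limit of 5 on −log10 q overlapped 952. Leaving out a list drops a condition of the rule, so the near-complete overlap there was fixed in advance. The 952 are the members with a −log10 q of at least 5 in every CRAMP1-KO list. The excess of members among neighbours of members, 9.44 percentage points, was 11.2 in equal lists, 12.7 at that limit, 12.1 within 20 kb, 7.49 within 500 kb, and 6.68 to 12.4 without 1 library. The excess distance to shared regions, 6.22 kb, was 8.59 kb at the limit of 5 and 3.57 to 5.82 kb without 1 library. The excess in fold, 1.31, was 0.879 in equal lists and 0.789 to 1.34 without 1 library. The excess in width stayed positive, at 18.7 to 27.3 bp without 1 library. Its difference from WT-only regions, 11.3 bp, reversed to -1.17 in equal lists, -25.7 at the limit of 5 and -6.83 without CRAMP1-KO replicate 3, the range without 1 library being -6.83 to 17.2 bp. The fall of the member share from under 10 to 40 or more shared regions, 30.1 points, was 37.4 in equal lists, 34 with the 4 segments kept and 30.8 to 44.6 without 1 library. The causes were not tested.

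Shared regions called higher near members numbered 141 within 10 kb, 1749 within 200 kb and 347 to 432 without 1 library, against 560. Those called lower numbered 67, 1402 and 155 to 236, and 162 with the scaling by the lowest background, against 339. Of these 899 and 628 calls near members, 62.3% and 74.2% were higher under the 2 scalings. With a replicate block they numbered 502 and 287. Deviations of same-numbered libraries correlated at 0.0563, 0.0617 and -0.0914, and those of other pairs at -0.155 to 0.0972. The signal thus showed no pairing by replicate number, which cannot tell whether libraries were prepared together. Total reads are unknown, so depth limits what can be said of sites not listed.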
